A study of Rattus norvegicus with 10 samples.

Results

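The subject of these measurements was the nuclear genes that encode the subunits of oxidative phosphorylation, complexes I to V of the mitochondrial inner membrane, in rat liver. Members were chosen by gene symbol alone: probes whose accession named a rat gene starting with Nduf, Uqcr, Cox4 to Cox8 or Atp5, or Sdha to Sdhd, without pseudogenes and without the Ndufaf assembly factors. The array held 83 such probes for 73 genes. Of these, 79 probes for 69 genes passed the filter on dim probes, which asks that every array of some group read the probe well above background, and were tested, among 9190 named genes tested in all. Complex I had 31 of the tested genes, complex II 4, complex III 7, complex IV 12 and complex V 15. The 4 genes that were not tested were Uqcrq (well above background on 2 of 10 arrays), Cox6b2 (5 arrays), Cox8b (3 arrays) and Cox8c (0 arrays).

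Livers came from male Sprague Dawley rats, 1 array per rat, and were taken 24 h after dosing. The control group (n = 3) received the solvent, propylene glycol. The SM group (n = 4) received sulfur mustard (SM), an alkylating blister agent, at 3.5 mg/kg under the skin. The SM + MSTF group (n = 3) received the same SM dose and, 1 h later, MSTF at 120 mg/kg by gavage. MSTF combines salvianolic acids, which are phenolic acids of the sage Salvia miltiorrhiza, with the total flavonoids of the herb Anemarrhena asphodeloides. No group received MSTF without SM, and the arrayed rats were a subset of those treated.

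Oxidative phosphorylation passes electrons from NADH (complex I) and succinate (complex II) through coenzyme Q, complex III, cytochrome c and complex IV to oxygen, and complex V uses the resulting proton gradient to make ATP. Its subunits are encoded in part by mitochondrial DNA and in larger part by the nucleus, and the nuclear genes are known for sharing the regulators NRF1, GABP and YY1. Hepatocytes are rich in mitochondria and use this ATP for gluconeogenesis, the urea cycle and other synthesis. The mitochondrially encoded subunits were not analysed here.

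The arrays were alike in quality: 51.9% to 61.4% of probes were well above background, the median signal was 2.20 to 2.54 times the background, and no spot was saturated. Slides divided the groups unevenly. The 3 controls and SM + MSTF replicate 3 shared slide 1, the 4 SM arrays filled slide 2, and SM + MSTF replicates 1 and 2 were on slide 3, so that SM cannot be told apart from slide 2. The 8 hepatocyte markers (such as Alb and Ttr) were all tested and none was called in any comparison. In SM + MSTF against control 2 of the 8 were lower and 0 higher at an unadjusted p under 0.05 (limma). The 8 fitted at -0.49 to 0.31 there. Their summed signal was 1429270 to 1533380 in control, 1372800 to 1436050 in SM and 1274310 to 1458720 in SM + MSTF. Over all probes tested, 16.4% had an unadjusted p under 0.05 in SM against control. The shares were 9.54% in SM + MSTF against control and 15.9% in SM + MSTF against SM. Of the markers of other cell types, only Klrd1, a receptor of natural killer cells, was called. It was lower in SM than in control (log2 fold change -1.22, adjusted p = 0.0277, limma) and higher in SM + MSTF than in SM (1.15, adjusted p = 0.0455). Its probe was well above background on 3 of 3 control, 2 of 4 SM and 3 of 3 SM + MSTF arrays. Klrd1 thus passed the filter on dim probes only through the groups where it was high, and its SM signal was near background. The summed signal of 4 stellate cell markers was 13650 to 14786 in control, 8300.5 to 9916 in SM and 7511 to 13863 in SM + MSTF. None of the 4 was called. In SM against control 3 of the 4 fitted below 0 (range -0.99 to 0.20), and 2 were lower at an unadjusted p under 0.05 (limma). The 2 neutrophil markers tested fitted at 0.61 and 0.75 in SM against control, neither called. Their sums were 246 to 498 in control, 274 to 1545 in SM and 315 to 837 in SM + MSTF. All 6 Kupffer cell and macrophage markers fitted below control in SM (median log2 fold change -0.12, 0 at an unadjusted p under 0.05) and above SM in SM + MSTF (median 0.45, 4 at an unadjusted p under 0.05), with summed signals of 51255 to 74706 in control, 34432 to 62031 in SM and 53061 to 69843 in SM + MSTF. The 3 erythroid markers had a median of 0.90 in SM against control (1 at an unadjusted p under 0.05) and sums of 4595 to 12967, 5366 to 18905 and 5640 to 14597 in the same order of groups. Cd79b, the 1 B cell marker tested, fitted at -2.18 in SM against control (adjusted p = 0.125, limma) on a probe well above background on 7 of 10 arrays. These were 3 of 3 control, 2 of 4 SM and 2 of 3 SM + MSTF arrays, so Cd79b passed the filter only through control. The part of these cell types in the results was not tested. These are bulk samples, in which fewer cells of a type and less RNA per cell cannot be told apart.

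The first question was whether SM changed the transcripts of the respiratory chain and ATP synthase. Most of them stayed close to control. A probe was called at an adjusted p under 0.05 (limma with Benjamini-Hochberg adjustment over 22991 probes) and a difference of at least 1.5-fold. In SM against control 2 of 79 subunit probes were called, both lower, where 2.41% of all probes tested were called. They were a probe of Ndufc2, an accessory subunit of complex I, and the probe of Cox7c, a small subunit of complex IV. At an unadjusted p under 0.05, 13 of 79 probes differed (4 higher, 9 lower), beside 16.4% of all probes. The 95% interval lay within 1.5-fold of no change for 70 of 79 subunit probes, against 60.1% of all probes. The median log2 fold change of the 69 genes was -0.002 and that of all named genes 0.04.

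In SM + MSTF against control 0 subunit probes were called by limma, as were 0% of all probes, and 10 of 79 had an unadjusted p under 0.05, all 10 lower (9.54% of all probes). The interval lay within 1.5-fold for 73 of 79 (59.6% of all probes). Fitted values were below 0 for 63 of 79 subunit probes, or 79.7%, against 49.1% of all probes, with a median over the 69 genes of -0.11. In SM + MSTF against SM 1 of 79 was called, a probe of Cox6a2, which was lower (1.26% of all probes were called). A further 2 probes were lower at an unadjusted p under 0.05, making 3 of 79 (15.9% of all probes). Fitted values there were below 0 for 60 of 79 (53.6% of all probes). The interval lay within 1.5-fold for 73 of 79 (58.5% of all probes). The comparisons with control share the control arrays, and those with SM share the SM arrays.

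**Figure D1:**
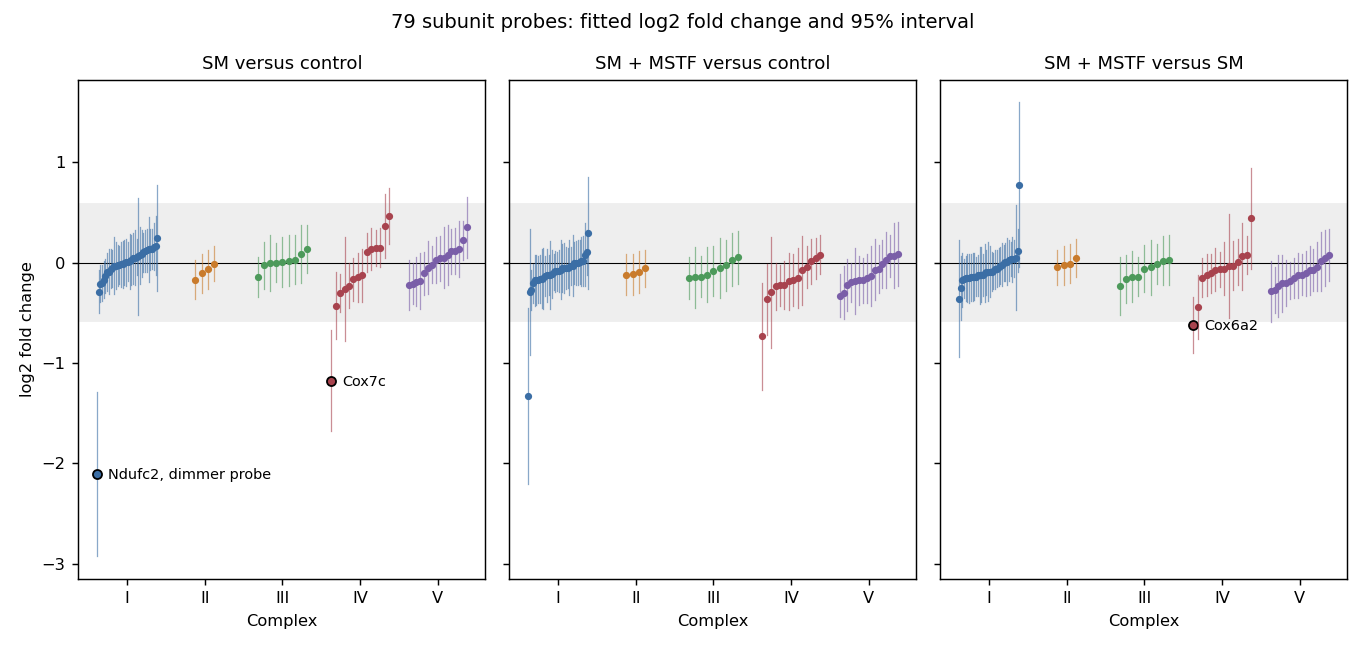
Fitted log2 fold change (y axis) of each of the 79 subunit probes by complex (x axis) in the 3 comparisons; points are estimates, vertical lines 95% intervals, and the grey band marks 1.5-fold either way. Apart from 1 Ndufc2 probe, all points of complexes I, II, III and V lie inside the band, and the points of complex IV are more spread.

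Subunit probes were bright, and the part of brightness in their narrow intervals and in the signs of their fitted values was not tested. Their median log2 signal was 14.39, where that of all probes tested was 7.73. Among 1120 other probes with a mean log2 signal of at least 13.4, the interval lay within 1.5-fold for 81% in SM against control, 78% in SM + MSTF against control and 79.7% in SM + MSTF against SM. For the 56 subunit probes of that brightness the shares were 96.4%, 98.2% and 98.2%. Fitted values were below 0 for 45.2%, 57.4% and 59.2% of the 1120 others, in the same order of comparisons. For the 56 these shares were 53.6%, 80.4% and 73.2%. These 56 were not called in any of the 3 comparisons, where 5 of the 1120 others were called in SM against control, 0 in SM + MSTF against control and 1 in SM + MSTF against SM (limma).

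**Figure D2:**
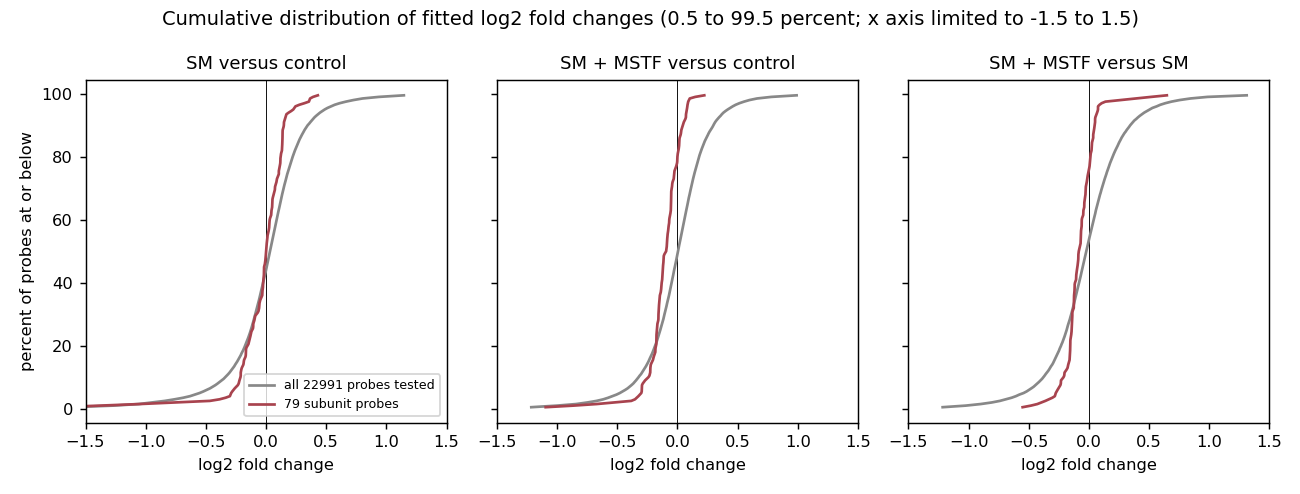
Cumulative percent of probes (y axis) at or below each fitted log2 fold change (x axis) for the 79 subunit probes (red) and all 22991 probes tested (grey). The red curves are steeper, and in both SM + MSTF comparisons they lie to the left of the grey ones over most of their height, with medians of -0.09 and -0.08 against 0.005 and -0.02.

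The Ndufc2 probe that was called gave log2 signals of 9.81, 9.72 and 9.80 in control, of 7.70, 7.48, 7.71 and 7.81 in SM, and of 7.86, 7.88 and 9.62 in SM + MSTF. The SM arrays lay below all controls, and SM + MSTF replicate 3 sat with the controls while replicates 1 and 2 sat with SM. The fitted log2 fold change in SM against control was -2.10 (SE 0.37, adjusted p = 0.023, limma). The arrays fell in the order of slides: slide 1 averaged 9.74 ± 0.09 (SD, n = 4) and slides 2 and 3 averaged 7.74 ± 0.15 (SD, n = 6), with no overlap. Within slide 1, SM + MSTF replicate 3 differed from the control mean by -0.16, while replicates 1 and 2, on slide 3, differed from it by -1.91 on average.

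The other, brighter probe of Ndufc2 did not pass the test. It read 14.14, 14.12 and 14.05 in control, 13.99, 13.98, 13.90 and 13.87 in SM, and 13.94, 13.91 and 14.07 in SM + MSTF. SM differed from control by -0.17 on the log2 scale (95% interval -0.35 to 0.02). Its arrays split by slide in the same way, by 0.16, so that the 2 probes of Ndufc2 differed by 1.94 in their log2 fold changes in SM against control. Gene copies listed in the reference can share sequence with such probes, and what each probe binds was not tested.

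Cox7c was measured by a single probe, with log2 signals of 12.43, 12.27 and 12.10 in control, of 11.14, 10.92, 11.28 and 11.02 in SM, and of 11.33, 11.11 and 12.16 in SM + MSTF. The pattern was that of the called Ndufc2 probe. All SM arrays were below all controls, and SM + MSTF replicate 3 was again at the control level. The log2 fold change in SM against control was -1.18 (SE 0.22, adjusted p = 0.029, limma), or 0.442 of the control signal. Slide 1 averaged 12.24 ± 0.15 (SD, n = 4) and the other slides 11.13 ± 0.15 (SD, n = 6), and within slide 1 replicate 3 differed from the control mean by -0.11. As for Ndufc2, what the Cox7c probe binds, and whether gene copies share its sequence, was not tested.

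The sizes of both differences held when arrays were left out, and the calls did not. In SM against control, leaving out any 1 of the 7 control and SM arrays ended both calls. The log2 fold change of the Ndufc2 probe was then -2.15 to -2.04 (adjusted p from 0.0509 to 0.089, limma) and that of Cox7c -1.26 to -1.10 (adjusted p from 0.0634 to 0.109). The calls over all probes fell from 553 to between 65 and 327 in the same fits. Slide as a random block also ended both calls, with log2 fold changes of -1.98 and -1.11 (adjusted p = 0.0724 and 0.0923) and 85 of all probes called. Other fits gave smaller adjusted p: 0.000159 for the Ndufc2 probe and 0.00264 for Cox7c with only the 2 groups compared in the fit, and 4.42e-05 and 0.0012 without SM + MSTF replicate 3. Without that array, both probes were also called lower in SM + MSTF against control (log2 fold changes -1.91 and -1.05, adjusted p = 0.000261 and 0.0128), where 247 of 23048 probes, or 1.07%, were called in place of 0.

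**Figure D3:**
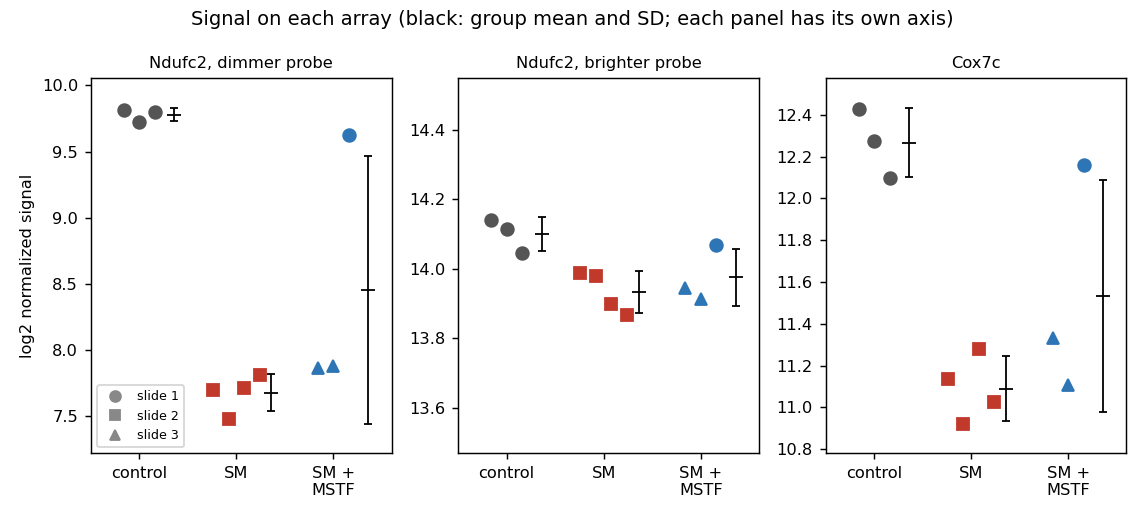
Log2 normalized signal (y axis, its own range in each panel) on each array for the called and the brighter Ndufc2 probes and for Cox7c, by group; symbols mark the slide, and black bars are group means ± SD. In all 3 panels SM + MSTF replicate 3, on slide 1, lies with the controls.

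A split by slide was seen for 8 of 79 subunit probes: on slide 1 every array was higher than every other array, or lower, beside 5.81% of all probes. Among them, Ndufc2 (both probes) and Cox7c were higher on slide 1, and Atp5f1d, Cox4i1, the brighter Cox5b probe and 1 probe of Atp5mc2 were lower. The called Ndufc2 probe and Cox7c were the members whose slide means differed by at least 1 log2 unit. Over all probes, 269 of the 553 called in SM against control split by slide in this way. Of the 329 called lower, 242 did, or 73.6%. Controls were on slide 1 and SM arrays on slide 2, so a call in SM against control already favours such a split. The part of the slide in these results was not tested further.

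Complex IV, cytochrome c oxidase, which hands electrons to oxygen, was the most divided complex in SM against control. Its signals were separate in SM and control for 10 of 14 probes, 4 higher and 6 lower, against 23 of all 79 subunit probes and 18% of all probes tested. For SM + MSTF against control the count was 3 of 14, with 15 of 79 subunit probes and 15.4% of all probes, and for SM + MSTF against SM it was 3 of 14, with 9 of 79 and 14.7%. The 95% interval lay within 1.5-fold for 9 of the 14 complex IV probes in SM against control, compared with 33 of 36 for complex I, 4 of 4 for complex II, 9 of 9 for complex III and 15 of 16 for complex V.

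Cox6a2, the form of subunit 6a known from heart and skeletal muscle, was lower in the comparison of SM + MSTF with SM, a call on the brighter of its 2 probes, and the dimmer probe had the same signs without passing the test. The brighter probe read 7.63, 7.37 and 7.37 in control, 7.89, 7.81, 8.11 and 7.91 in SM, and 7.10, 7.34 and 7.48 in SM + MSTF. The 4 SM arrays were above all others. The log2 fold change was -0.62 (SE 0.12, adjusted p = 0.0468, limma) in SM + MSTF against SM and 0.47 (SE 0.12, adjusted p = 0.0861) in SM against control, which did not pass. SM + MSTF against control gave -0.15 (95% interval -0.45 to 0.15).

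The dimmer Cox6a2 probe, well above background on 9 of 10 arrays, read 5.32, 4.80 and 5.10 in control, 5.35, 5.21, 5.65 and 5.55 in SM, and 4.99, 4.98 and 5.03 in SM + MSTF. Its SM arrays were above the SM + MSTF arrays but overlapped the controls, with log2 fold changes of 0.37 and, in SM + MSTF against SM, -0.44 (adjusted p = 0.237 and 0.189). The call on the brighter probe was near the threshold. It was lost in 9 of the 10 fits that left out 1 array, with adjusted p from 0.0437 to 0.14 over the 10. It was also lost after normexp background correction, where the log2 fold change was -0.39 (adjusted p = 0.119). SM + MSTF replicate 3 sat with the other SM + MSTF arrays here, not apart as for Cox7c. All SM arrays and no others were on slide 2, so SM cannot be told apart from slide 2 for Cox6a2 either. Skeletal muscle markers were at or near background: Ckm and Myh4 were well above background on 0 arrays, Acta1 on 1 and Tnnt3 on 2.

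Cox6a1, the form of the same subunit found in liver, read 17.13 to 17.29 in control, 17.25 to 17.39 in SM and 17.11 to 17.25 in SM + MSTF, with no comparison called. Among other isoform pairs, Cox4i1 gave log2 fold changes of 0.15 in SM against control and 0.08 in SM + MSTF against control, and Cox4i2, the form known from lung and induced by low oxygen, gave -0.26 and -0.30 (95% interval -0.78 to 0.25 in SM against control). Control replicate 1, at 11.04, stood above the other 2 controls (10.35 and 10.12) for Cox4i2. Cox7a2 fitted at -0.17 and -0.23, Cox7b at -0.12 and -0.18, and Cox8a at -0.15 and -0.18, none of them called. Ndufa4, filed by its name with complex I although it is now known as a complex IV subunit, fitted at -0.20 in both comparisons with control (adjusted p = 0.243 and 0.502, limma).

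Cox5a, a structural subunit, read 14.88, 14.75 and 14.69 in control, 14.31, 14.28, 14.23 and 14.57 in SM, and 14.76, 14.19 and 14.28 in SM + MSTF. The SM arrays were below all controls, and SM + MSTF replicate 1 lay among the controls. The log2 fold change was -0.43 in SM against control (adjusted p = 0.182, limma) and -0.37 in SM + MSTF against control (adjusted p = 0.513), so the difference did not pass the test. The 2 probes of Cox5b gave opposite signs in SM against control, -0.30 for the dimmer (adjusted p = 0.108) and 0.14 for the brighter (adjusted p = 0.515). Cox6c fitted at -0.23 in SM against control (adjusted p = 0.295) and Cox7a2l, known for joining complexes into supercomplexes, at 0.15.

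**Figure D4:**
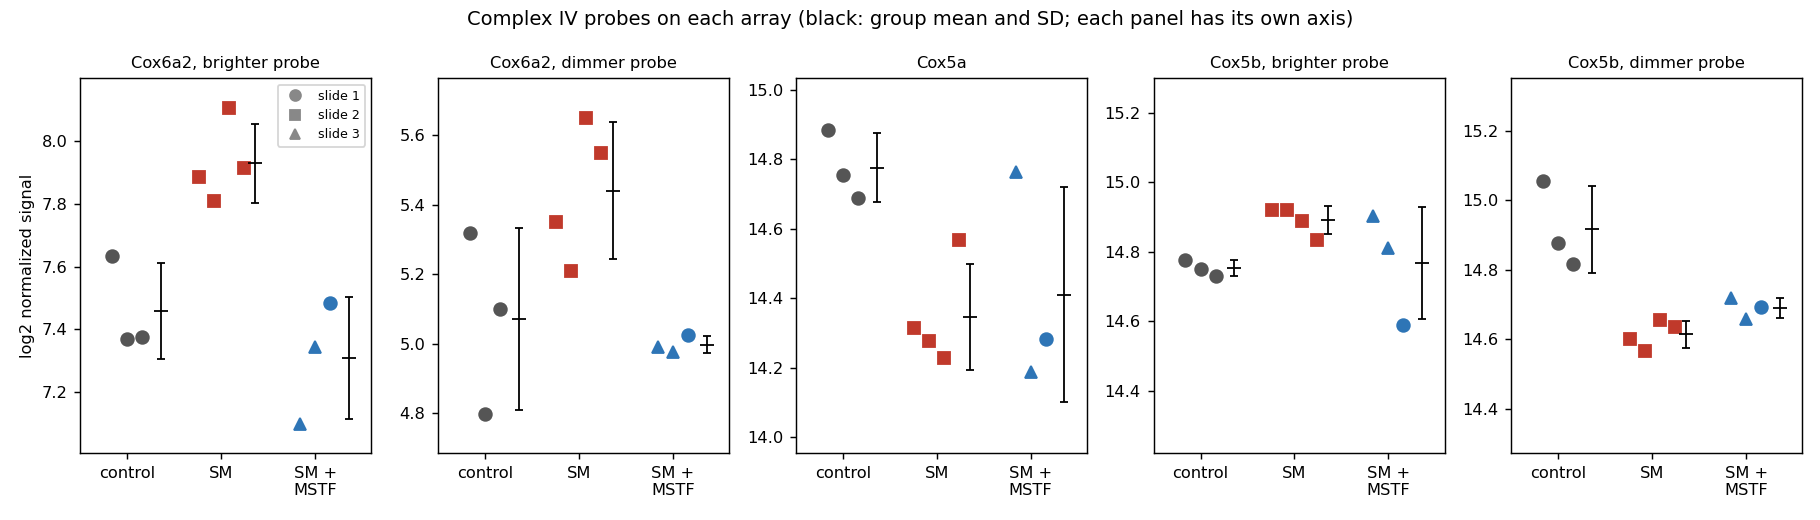
Log2 normalized signal (y axis, its own range in each panel) on each array for both probes of Cox6a2, for Cox5a and for both probes of Cox5b, by group; symbols mark the slide, and black bars are group means ± SD. The 4 SM arrays are the highest on the brighter Cox6a2 probe, and the Cox5b probes move in opposite directions.

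In complex I, the NADH dehydrogenase, the core subunits stayed near control. Ndufs1, the large iron-sulfur subunit, read 9.29 to 9.61 in control, 9.48 to 9.89 in SM and 9.37 to 9.70 in SM + MSTF, with a log2 fold change of 0.17 in SM against control. Ndufv1, which binds NADH, gave 0.09. Among probes well above background on all 10 arrays, taking the brightest probe of each gene, Ndufs1 was the highest of complex I in SM against control. Accessory subunit Ndufb2 fitted at -0.21 in SM against control and -0.27 in SM + MSTF against control (adjusted p = 0.238 and 0.424). The median over the 31 genes was 0.003 in SM against control, -0.09 in SM + MSTF against control and -0.09 in SM + MSTF against SM.

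Ndufv3, an accessory subunit, was the lowest of complex I in both SM + MSTF comparisons, at -0.29 against control and -0.36 against SM, with wide intervals (-0.92 to 0.33 and -0.94 to 0.23). It read 13.55, 13.26 and 13.44 in control, 13.61, 13.58, 13.78 and 12.95 in SM, and 13.65, 13.15 and 12.56 in SM + MSTF. SM replicate 4 and SM + MSTF replicate 3 were its lowest arrays.

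Complex II, succinate dehydrogenase, which also belongs to the citric acid cycle, was below control for all 4 genes in SM and in SM + MSTF, by small amounts. Sdha, the catalytic flavoprotein, read 14.87, 14.92 and 14.94 in control, 14.70, 14.87, 14.67 and 14.73 in SM, and 14.85, 14.80 and 14.72 in SM + MSTF. All treated arrays were at or below the lowest control. Its log2 fold changes were -0.17 and -0.12 (adjusted p = 0.37 and 0.699, limma). Sdhb, the iron-sulfur subunit, fitted at -0.01 and -0.06. Complex III, which passes electrons to cytochrome c, had no probe at an unadjusted p under 0.05 in any comparison (limma). The Rieske protein Uqcrfs1 fitted at 0.03 in SM against control and the core protein Uqcrc1 at -0.005, and the 3 probes of Uqcrb ranged from -0.14 to 0.09.

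In complex V, ATP synthase, the catalytic subunits Atp5f1a and Atp5f1b fitted at 0.08 and -0.18 in SM against control (adjusted p = 0.831 and 0.517, limma). Atp5f1d, a subunit of the central stalk, was the highest at 0.36 (SE 0.14, adjusted p = 0.227). It read 13.95, 13.70 and 13.79 in control, 14.22, 14.05, 14.30 and 14.11 in SM, and 14.09, 13.99 and 13.57 in SM + MSTF. All SM arrays lay above the controls, and SM + MSTF replicate 3 lay below them. Atp5mg, a membrane subunit of the proton channel part, was the lowest in SM + MSTF against control at -0.33 (SE 0.10, adjusted p = 0.423), with 16.05, 15.82 and 15.82 in control and 15.63, 15.55 and 15.52 in SM + MSTF. Atp5if1, the inhibitor of the enzyme, fitted at -0.02 in SM and -0.20 in SM + MSTF (adjusted p = 0.939 and 0.518). For the ring subunits, Atp5mc1 gave 0.05 and -0.18, and the probes of Atp5mc2 gave 0.14 and 0.22 in SM against control with -0.07 and 0.07 in SM + MSTF against control.

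The level of each complex on an array was taken as the median, over its genes, of the log2 difference from the control mean. Over the 69 genes this median was -0.03 to 0.04 on the control arrays and -0.08 to 0.05 on the SM arrays. On the SM + MSTF arrays it was 0.01, -0.08 and -0.20. The last of these, replicate 3, had 64 of 69 genes below the control mean, with complex V at -0.24 (15 of 15 genes below) and complex III at -0.21 (6 of 7). On the same array the median of the 1176 probes with a mean log2 signal of at least 13.4 differed from control by -0.08, a larger shift than on any other array, and the median of all probes by -0.01. The low median of SM + MSTF thus rested in part on replicate 3. Without it the median over all genes was -0.05 and that of complex V -0.06, against -0.11 and -0.16 with it. Still, 42 of 69 genes fitted below control without replicate 3, against 55 with it. Replicate 2 had 50 of 69 genes below the control mean, and complex IV was at -0.19 on both replicates 2 and 3. Replicate 3 shared slide 1 with the controls, and replicates 1 and 2 were on slide 3.

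Complexes II and IV were the lowest in SM, with mean medians of -0.09 ± 0.06 and -0.11 ± 0.09 (SD, n = 4), beside 0.006 ± 0.07 for complex I, 0.02 ± 0.03 for complex III and 0.01 ± 0.03 for complex V. The control values for complex IV ranged from -0.07 to 0.12 and overlapped the SM values of -0.22 to -0.01. These medians depended on scaling. With each array scaled to its 75th percentile in place of quantile normalization, the median of all genes in SM against control was 0.11 and those of complexes I, II, III, IV and V were 0.12, 0.003, 0.11, 0.03 and 0.12, so that complexes II and IV were the lowest there too but no complex was below 0. The median of all probes moved only from 0.03 to 0.05.

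**Figure D5:**
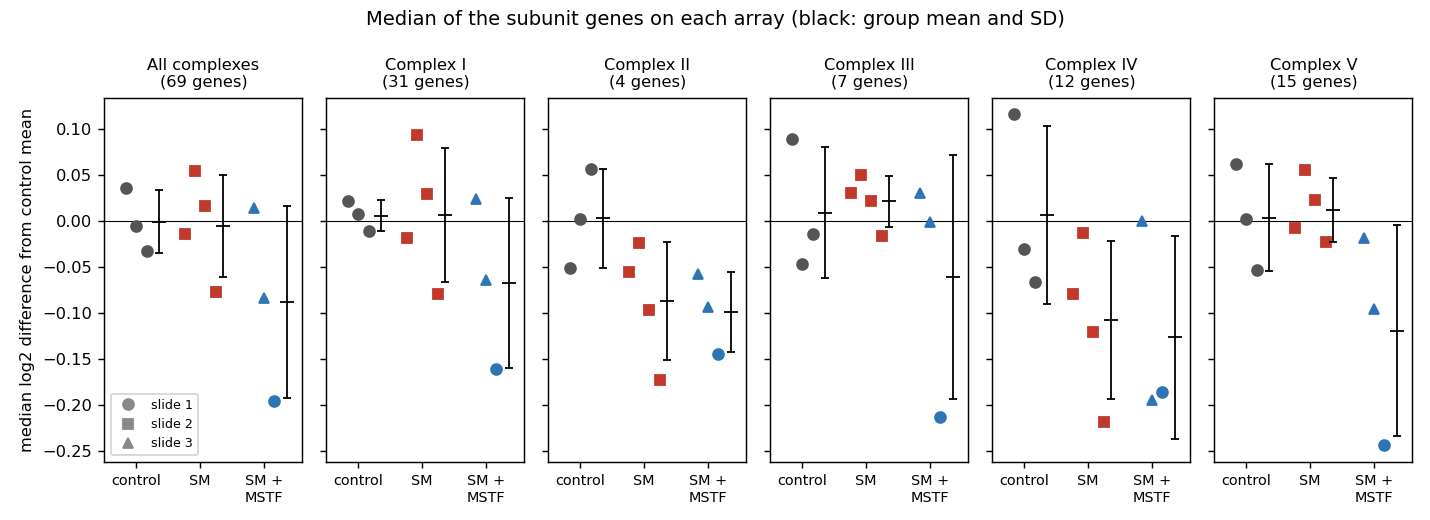
Median log2 difference from the control mean (y axis) over the genes of each complex on each array, by group; symbols mark the slide, and black bars are group means ± SD. SM + MSTF replicate 3, on slide 1, is the lowest of all 10 arrays for all complexes together and for complexes I, III and V.

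The promoters of these genes were set beside the values, since members of a pathway can share regulators. The RefSeq promoter table (GRCr8) held a 300-base window, 250 bases before to 50 after the start of the gene, for 60 of the 69 genes. The NRF1 core CGCANGCG was present on either strand in 38.3% of these windows, against 16.5% of 7488 other genes tested on the array and 7.6% of all 33469 promoters of the table. The ETS motif bound by GABP, CCGGAAG, was present in 31.7%, 18.2% and 8.75%, and the YY1 motif AANATGGC in 36.7%, 9.87% and 6.96%. At least 1 of the 3 was present in 71.7%, 36.5% and 20.1%. By complex the share with at least 1 ran from 66.7% for complex IV to 100% for complex II. No overlap between different motifs was removed, and a match is a description of the letters, not a site of binding.

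The 250 bases before the start are shown for the 3 genes with a called probe and, for comparison, for 3 genes of complexes II, III and V that hold motifs there. Capitals mark matches to the NRF1 core or the ETS motif on either strand. The windows are Ndufc2 at chr1:161122940-161123189 (plus strand), Cox7c at chr2:18579171-18579420 (minus strand), Cox6a2 at chr1:192219717-192219966 (minus strand), Uqcrc1 at chr8:118467973-118468222 (plus strand), Sdhb at chr5:158547684-158547933 (plus strand) and Atp5mg at chr8:54130408-54130657 (minus strand), written 5′ to 3′ along the gene.
Ndufc2: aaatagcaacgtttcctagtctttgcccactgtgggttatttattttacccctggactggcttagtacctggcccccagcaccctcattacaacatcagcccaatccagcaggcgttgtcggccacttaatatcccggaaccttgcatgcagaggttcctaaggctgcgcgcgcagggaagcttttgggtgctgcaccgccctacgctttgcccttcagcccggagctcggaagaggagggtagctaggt
Cox7c: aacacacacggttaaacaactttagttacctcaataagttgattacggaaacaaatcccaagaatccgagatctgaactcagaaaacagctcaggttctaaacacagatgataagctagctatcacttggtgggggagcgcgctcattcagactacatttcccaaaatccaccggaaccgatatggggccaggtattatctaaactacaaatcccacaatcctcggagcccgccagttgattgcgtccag
Cox6a2: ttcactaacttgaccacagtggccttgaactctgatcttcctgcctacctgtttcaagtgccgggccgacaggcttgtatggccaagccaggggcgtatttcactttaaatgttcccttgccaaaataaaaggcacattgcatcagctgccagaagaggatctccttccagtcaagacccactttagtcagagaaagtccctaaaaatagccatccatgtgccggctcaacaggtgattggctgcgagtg
Uqcrc1: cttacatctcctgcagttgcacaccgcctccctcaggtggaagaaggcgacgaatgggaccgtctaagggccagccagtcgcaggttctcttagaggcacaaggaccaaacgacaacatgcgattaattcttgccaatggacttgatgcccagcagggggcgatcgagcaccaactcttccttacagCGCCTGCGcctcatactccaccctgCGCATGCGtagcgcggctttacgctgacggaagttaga
Sdhb: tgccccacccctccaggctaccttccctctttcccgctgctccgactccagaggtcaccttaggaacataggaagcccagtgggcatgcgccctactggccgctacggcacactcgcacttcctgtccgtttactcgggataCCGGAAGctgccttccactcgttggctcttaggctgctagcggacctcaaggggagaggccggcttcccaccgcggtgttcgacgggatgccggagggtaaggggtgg
Atp5mg: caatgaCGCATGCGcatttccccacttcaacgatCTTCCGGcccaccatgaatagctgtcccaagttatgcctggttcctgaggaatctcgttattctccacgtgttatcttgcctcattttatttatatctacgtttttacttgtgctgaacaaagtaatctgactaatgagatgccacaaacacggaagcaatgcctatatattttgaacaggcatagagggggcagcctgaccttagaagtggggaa
The windows of Ndufc2, Cox7c and Cox6a2 held none of the 3 motifs, also within the 50 bases after the start. Uqcrc1 held the NRF1 core at 63 and 38 bases before its start, Sdhb the ETS motif at 108 bases before, and Atp5mg the NRF1 core at 244 and the ETS motif at 216 bases before. Further matches lay across or after the start in Uqcrc1 and Sdhb. Uqcrc1, Sdhb and Atp5mg were not called in any comparison. They were picked because they hold motifs, so their contrast with the called genes was set by that choice. The windows of Cox5a, Ndufb2 and Uqcrfs1, which were not called either, held none of the 3 motifs. A link between motifs and calls was not tested.

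None of the 22 regulators tested was called in any comparison. In SM against control 10 of them fitted below 0 (42.3% of all named genes), with a median of 0.02. In SM + MSTF against control 5 did (45.2% of all named genes), with a median of 0.09. Signals did not overlap between the groups for 1 and 6 of the 22 in these comparisons, beside 18% and 15.4% of all probes. Tfam, the packaging and transcription factor of mitochondrial DNA, fitted at -0.08 in SM against control and 0.01 in SM + MSTF against control, Gabpa at 0.11 and -0.09, Nrf1 at -0.06 and 0.26, and Esrra, a nuclear receptor that drives these genes, at 0.06 and 0.20. Ppargc1a, the coactivator of mitochondrial biogenesis, read 4.43, 3.99 and 3.83 in control, 5.70, 4.83, 4.68 and 5.56 in SM, and 5.44, 3.78 and 6.05 in SM + MSTF. Its SM arrays were above all controls, and SM + MSTF spanned both groups. The probe was well above background on 1 of 3 control, 4 of 4 SM and 2 of 3 SM + MSTF arrays, so it passed the filter on dim probes only through SM, and it was not called in any comparison.

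Of the other mitochondrial lists, 0 of 15 electron carriers and dehydrogenases, 0 of 38 assembly factors, 0 of 9 carriers and uncouplers, 0 of 22 regulators, 0 of 17 citric acid cycle genes and 0 of 19 protein import genes were called by limma in any comparison. Over all probes tested, 2.41% were called in SM against control. The shares were 0% in SM + MSTF against control and 1.26% in SM + MSTF against SM. Cycs, cytochrome c, fitted at 0.09 in SM and -0.05 in SM + MSTF, both against control. At an unadjusted p under 0.05 in SM against control, 2 of the 15 and 4 of the 38 were higher with 0 lower, 1 of the 9 was higher, 1 of the 22 was higher and 1 lower, 2 of the 17 were higher and 2 lower, and 2 of the 19 were higher. The share of all probes tested at that threshold was 16.4%. Of 66 mitochondrial ribosomal proteins 1, Mrpl38, was called, and was higher in SM than in control (0.61, SE 0.12, adjusted p = 0.0317). Medians of these lists in SM against control lay between 0.02 and 0.12, and 15 of the 66 ribosomal proteins and 10 of the 38 assembly factors were below 0. Of the 69 subunit genes 35 were below 0, and of all named genes tested 42.3%. In SM + MSTF against SM the ribosomal proteins and the assembly factors both had a median of -0.12, with 55 of 66 and 31 of 38 below 0, beside 53 of 69 subunit genes and 53.2% of all named genes. Under the 75th percentile scaling, 16 of 69 subunit genes were below 0 in SM against control and 67 of 69 in SM + MSTF against SM.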

How the data were processed

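Agilent 4 × 44 K Whole Rat Genome arrays were hybridised with Cy3-labelled liver RNA of 10 rats, and samples were grouped by the treatment in their labels. The authors read the spots with Agilent Feature Extraction 10.7 and deposited, per the file headers, the intensity of each spot after background subtraction with marks for spots well above background. A table of log2 values per probe, made by the authors with GeneSpring and its quantile method, was deposited as well and served here as an alternative.

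Here, after control spots and the 0 to 4 spots of an array that were marked not uniform had been dropped, intensities of the 43379 spots were quantile normalized, log2 transformed and averaged by probe, giving 41012 probes (R 4.3.3, limma 3.58.1). A probe was tested if it was well above background (on a share of at least 0.5 of its spots) on every array of at least 1 group, which left 22991. Accessions named 17512 probes through the RefSeq table (GRCr8), and genes without a named probe were not analysed here. All 10 arrays entered 1 limma fit with Benjamini-Hochberg adjustment. Where a gene had several tested probes (8 of 69), the one of highest mean signal stood for it. Scripts were tested on simulated data. Coordinates are given only for promoter windows of the RefSeq table (GRCr8), because the array was designed on an older assembly.

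Members and lists were chosen with earlier results of these data known. Genes named are those called, the lowest and highest of each complex in each comparison among probes well above background on all 10 arrays, core subunits, tissue isoform pairs, regulators, called genes of other lists, and genes singled out after their values were seen (Ndufb2, Cox5b, Cox6c, Cox7a2l, Atp5if1). A result under this rule is not reported here. P-values cover the spread between arrays within groups, with 1 rat per array. In SM + MSTF that spread takes in slides 1 and 3. They do not cover the difference between slide 1 of the controls and slide 2 of SM. The number of arrays limits precision. Alternatives were 75th percentile scaling, the deposited log2 values, normexp (offset 50), no filter, a filter on all 10 arrays, not uniform spots kept, only the groups compared, the methods' t-test, replicate and slide blocks, each array left out, probes averaged per gene and a 2-fold minimum.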

Additional observations from a re-analysis of the deposited data

Results flagged for a closer look

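In the SM group, the 4 arrays of each named probe and of each complex median were examined for 1 array apart from the rest (a gap to the nearest array that is large against the range, by Dixon's 95% criterion), in 43 groups of 4. Chance alone gives about 1 such case in 20 groups, and 3 were found. Ndufv1 had SM replicate 2 at 11.97 with the other 3 arrays between 11.73 and 11.75 (ratio 0.945). Uqcrc2 had SM replicate 1 at 13.64 with the others between 13.55 and 13.56 (ratio 0.922). Atp5mg had SM replicate 4 at 15.60 with the others between 15.71 and 15.72 (ratio 0.933). None of these genes was called in any comparison.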

How the results depend on the processing

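Directions of the 3 called differences did not change under any alternative, and their calls did. The counts of subunit probes called were 2 in SM against control (both lower), 0 in SM + MSTF against control and 1 in SM + MSTF against SM (limma), and they were the same without the fold minimum. With no filter on dim probes, where 41012 probes enter the adjustment, with the replicate block and with slide as a random block (correlation 0.109), SM against control and SM + MSTF against SM each had 0. SM + MSTF against SM also had 0 after normexp correction, with probes well above background on all 10 arrays, with only the groups compared in the fit, with the methods' t-test after adjustment and with a 2-fold minimum. The methods' t-test at an unadjusted p under 0.05 with the 1.5-fold minimum gave 2, 0 and 1. No pairing by replicate number was evident. Over probes, deviations from the group mean of same-numbered arrays of different groups correlated at -0.10 to 0.17. Those of differently numbered arrays correlated at -0.23 to 0.18. With groups of 3 or 4 arrays, these correlations cannot exclude a pairing. The replicate block gave log2 fold changes of -2.15, -1.15 and -0.62 for the called probes of Ndufc2, Cox7c and Cox6a2. The cause of these lost calls was not tested.

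Leaving out 1 array at a time gave 0 to 2 calls in SM against control, 0 to 2 in SM + MSTF against control (2 without SM + MSTF replicate 3) and 0 to 1 in SM + MSTF against SM, with and without the fold minimum. Medians moved with it: complex IV in SM against control ranged from -0.18 to -0.031 (the latter without control replicate 1), and in SM + MSTF against control complex III from -0.14 to 0.030 and complex V from -0.20 to -0.058. With slide as a fixed block, which compares SM + MSTF replicate 3 with the controls of slide 1, the SM + MSTF against control medians were -0.20 over all genes, -0.16 for complex I, -0.21 for complex III and -0.24 for complex V, and 0 of 79 subunit probes were called, beside 291 of 22991 probes over all (the spread is taken from the other arrays).

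The 75th percentile scaling gave medians in SM against control of 0.11 over all genes, 0.12 for complex I, 0.0033 for complex II, 0.11 for complex III, 0.029 for complex IV and 0.12 for complex V. In SM + MSTF against SM it gave -0.17 over all genes, -0.17 for complex I, -0.093 for complex II, -0.17 for complex III and -0.20 for complex V. For the named genes, 1923 of 2010 recomputed values stayed within their spread between arrays of a group or on the same side of the call. Of the rest, 50 moved further, 35 lost a call and 2 gained one. Among all 2010 the sign changed in 91, none of them a called value. Changes smaller than about 1.5-fold in dim probes such as Ndufs4 and Cox6a2 are limited by signal over background.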
